A study of Rattus norvegicus with 12 samples.

Results

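The genes described here build and cut the extracellular matrix: collagens, laminins and thrombospondins on the structural side, the Mmp and Adamts proteases on the other, and the Timp inhibitors. Members were picked by gene symbol (Col, Lama, Lamb, Lamc, Thbs, Mmp, Adamts and Timp followed by their numbers), which gave 101 of the 32883 genes in the tables. Of these, 56 were structural (42 collagens, 10 laminins, 4 thrombospondins), 41 were proteases (22 Mmp, 19 Adamts) and 4 were Timp inhibitors. A total of 59 members passed the filter on low counts and were tested (34 structural, 21 proteases, 4 inhibitors), 25 had counts below that filter, and 17 had no count in any library.

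The cells were 1464R cells, an adult rat neural stem cell line, after 4 days of differentiation toward neurons and glia with retinoic acid, and each group had 3 libraries. Control cells (Group 1) carried no TDP-43 virus and had neither ethacrynic acid nor edaravone. Eda cells (Group 2) had only edaravone, which scavenges free radicals (50 μmol/L, 48 h). TDP-43 + EA cells (Group 3) were infected with adenoviruses for human TDP-43, a protein that aggregates in amyotrophic lateral sclerosis, and then received ethacrynic acid, which depletes glutathione, at 20 μmol/L for 24 h. TDP-43 + EA + Eda cells (Group 4) had the same plus edaravone at 50 μmol/L, started 24 h before ethacrynic acid. GEO's labels name the C-terminal fragment virus only, whereas the study's methods name viruses of the full-length protein and of the fragment, both tagged with DsRed. Viruses and ethacrynic acid always came together and no group here had an empty virus, so their effects cannot be told apart in these groups. Outside them, the study also compared cells with TDP-43 alone or ethacrynic acid alone with control cells. It reports only a small difference for TDP-43 overexpression. All cells came from 1 line. The 3 libraries of a group are described as coming from 3 experiments, but neither the labels nor the methods say which library belongs to which experiment or whether cultures and infections were separate, so the p-values speak only of the spread among these libraries.

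Fibrillar collagens, such as types I and XI, form fibres, while collagens with interrupted helices, such as types IX and XVI, sit on the surface of such fibres, and type VI forms beaded filaments. Laminins are trimers of an alpha, a beta and a gamma chain that make up basement membranes, and thrombospondins are secreted glycoproteins that astrocytes are known to use in promoting synapse formation. Mmp enzymes and Adamts enzymes are zinc proteases that cut matrix proteins, with Adamts1, Adamts4, Adamts5 and Adamts9 known as cleavers of lecticans, the proteoglycans of the brain matrix. Timp proteins bind and block Mmp enzymes, and Timp3 also blocks Adamts4 and Adamts5.

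Library totals lay between 17.4 and 43.9 M counts (M, 1e6), and the highest total belonged to TDP-43 + EA + Eda replicate 1. The rat Tardbp gene, which also takes up reads of the human transgene, was at 37.1 to 41.1 CPM in Control and 34.5 to 38.7 CPM in Eda libraries. It was at 1090 to 1796 CPM with TDP-43 + EA and at 2000 to 3672 CPM once edaravone was added. Tardbp thus fitted the TDP-43 labels of all 12 libraries, and it does not check their edaravone labels. CPM is counts per 1e6, scaled by TMM factors that correct for library composition. All 12 oligodendrocyte lineage markers were tested, and their summed level was 30900 to 38600 TPM in Control and 29200 to 34100 TPM in Eda libraries, 14700 to 18600 TPM with TDP-43 + EA and 11900 to 16000 TPM once edaravone was added (TPM, transcripts per 1e6, is also adjusted for length). Motor neuron markers reached at most 1.2 TPM in sum, with Mnx1 and Slc18a3 at 0 in every library, and the neuronal marker Stmn2 was at 0. Mesenchymal and vascular markers, the usual mark of the cells that make most collagen, summed to between 0.414 and 2.01 TPM over all libraries, with 3 of 13 tested and with Lum and Rgs5 at 0. Fewer cells of a type and less RNA per cell cannot be told apart in these bulk libraries.

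In Control cells the most abundant member by TPM was the inhibitor Timp2, followed by the proteases Adamts4 and Adamts1 and the collagens Col16a1, Col11a2 and Col11a1. Timp2 stood at 369, 371 and 410 TPM in the 3 libraries and made up 96.9% ± 0.289 (SD, n = 3) of all Timp TPM. Adamts4 stood at 264, 255 and 330 TPM, and together with Adamts1 it made up 80.5% ± 1.26 (SD, n = 3) of all protease TPM. Col16a1 stood at 150, 172 and 149 TPM, ahead of Col11a2 at 93.6, 152 and 108 TPM, with an overlap between these genes. A total of 19 members had a mean of at least 10 TPM in Control: 13 structural genes, 5 proteases and 1 inhibitor. Among structural members, the transcripts of these cells were thus led by fibril-associated and minor fibrillar collagens. The main collagen of connective tissue, Col1a1, stood at 0.637, 0.73 and 0.913 TPM.

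**Figure D1:**
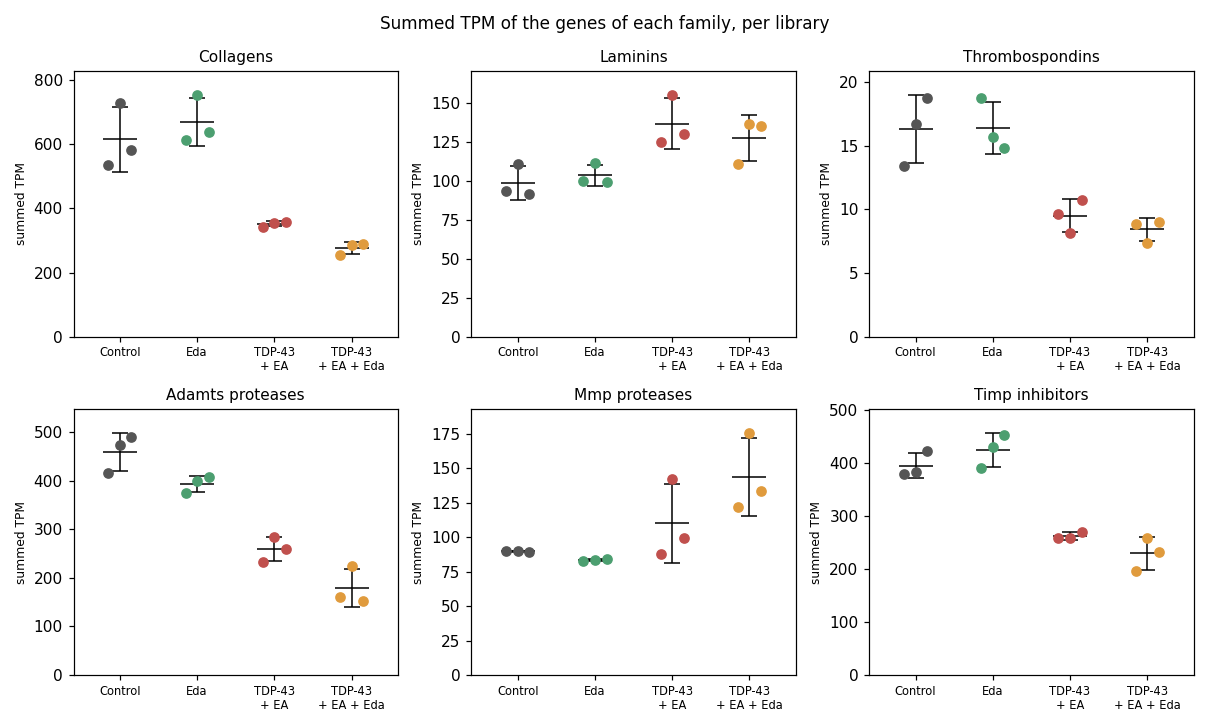
Summed TPM of each gene family (vertical axes) in the 12 libraries by group; each point is a library, the horizontal bar the mean of 3 libraries and the error bar 1 SD. The collagen sum is lower in all libraries of both TDP-43 + EA groups (256 to 358 TPM) than in all Control and Eda libraries (535 to 754), and the Mmp sum is higher in all TDP-43 + EA + Eda libraries (122 to 176) than in all Control libraries (89.6 to 90.2).

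Summed over the family, the collagens stood at 535, 727 and 583 TPM in Control and at 343, 355 and 358 in TDP-43 + EA. The Adamts sum was 416, 472 and 489 TPM against 233, 285 and 260, and the Timp sum 380, 384 and 422 against 258, 258 and 270. Laminins went the other way, with sums of 93.3, 111 and 91.5 TPM against 125, 155 and 130, and the Mmp sum overlapped between these groups (90.2, 89.8 and 89.6 against 88.0, 143 and 99.3). The sum of the proteases divided by that of the inhibitors was 1.39 ± 0.0692 in Control, 1.41 ± 0.218 in TDP-43 + EA and 1.40 ± 0.162 in TDP-43 + EA + Eda (SD, n = 3 each), and these groups overlapped. With Eda alone it was 1.13 ± 0.0451 (SD, n = 3), with all 3 libraries below those of the other groups. The ratio of Mmp to Timp sums was 0.237, 0.234 and 0.212 in Control, 0.213, 0.194 and 0.186 with Eda alone, 0.341, 0.553 and 0.367 with TDP-43 + EA, and 0.616, 0.679 and 0.573 once edaravone was added to these. The last 2 groups overlapped neither with each other nor with the first 2. These sums and ratios compare RNA levels and do not measure how far the inhibitors block the enzymes. They are descriptions on the TPM scale. On it the median gene lay 0.10 (log2) lower in TDP-43 + EA against Control than in the TMM-scaled counts. In TDP-43 + EA + Eda versus TDP-43 + EA it lay 0.24 lower.

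The comparison of TDP-43 + EA with Control asks what TDP-43 expression with oxidative stress did to these genes. Of the 59 tested members, 7 rose (11.9%) and 20 fell (33.9%), where 19.6% of all 13230 genes tested rose and 18.7% fell. Rose and fell mean an adjusted p of at most 0.05 in edgeR's quasi-likelihood test. Groups whose libraries do not overlap, as given below for single genes, were common among all genes tested: 51.4% showed no overlap in this comparison, 39.8% in TDP-43 + EA + Eda versus TDP-43 + EA, 12.6% in Eda and 61.9% in TDP-43 + EA + Eda, the last 2 set against Control. The median log2 fold change of the members was -0.17, and that of all genes 0.00. Among structural genes 3 rose and 14 fell of 34, among proteases 3 rose and 5 fell of 21, and among inhibitors 1 rose and 1 fell of 4. When the log2 fold change also had to reach 1 in size (a differentially expressed gene, DEG), 4 members were higher and 10 lower, beside 7.49% and 4.32% of all genes. All 4 of the higher DEGs were proteases or inhibitors (Mmp3, Mmp12, Mmp19 and Timp1), and of the 10 lower DEGs 6 were structural and 4 were proteases. Mmp3 and Mmp12 passed the filter only because of the groups with TDP-43 + EA, so they could hardly have been lower DEGs. The Timp1 call was lost in 11 of 12 fits with a single library left out. This split of the higher DEGs by class is therefore a description only.

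**Figure D2:**
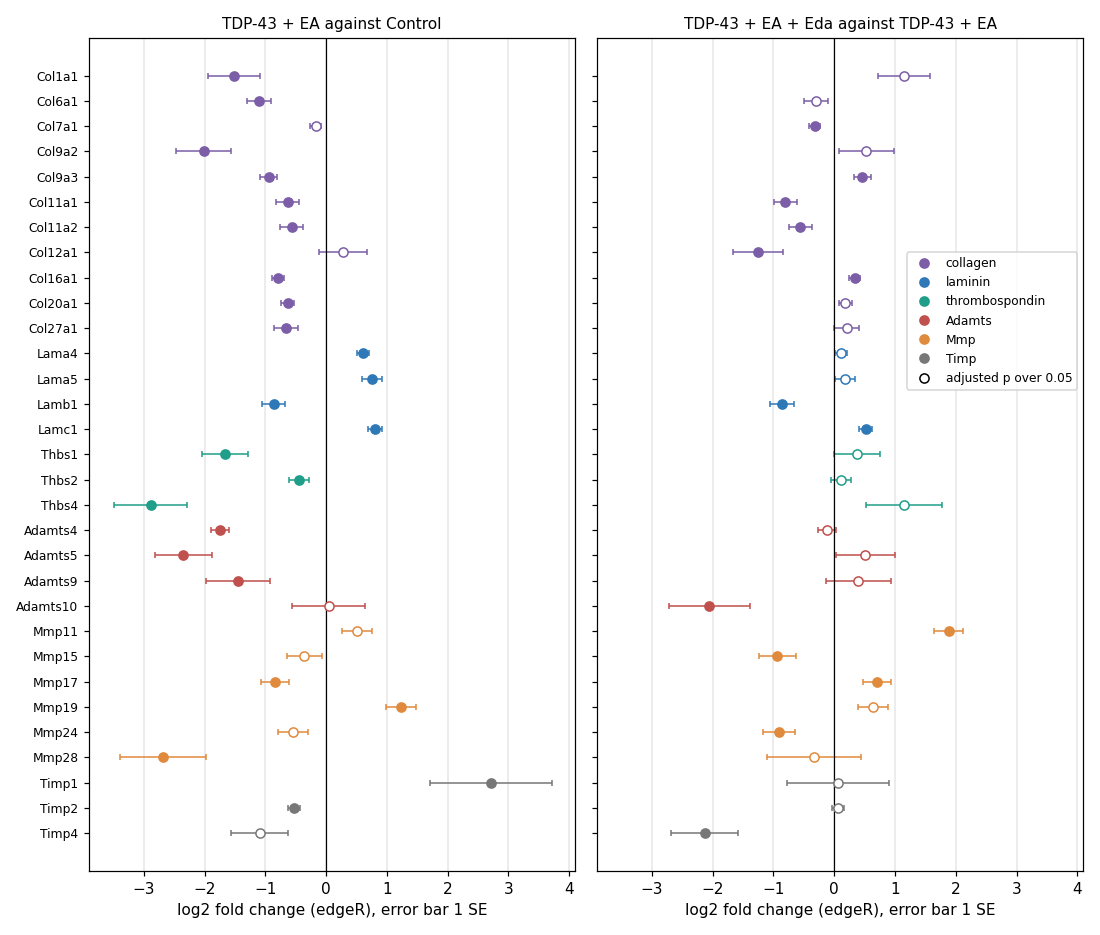
Log2 fold change (horizontal axes, 1 SE as error bar) of the 31 members that rose or fell in either comparison, without Mmp3, Mmp12 and Col9a1, whose fitted values depend on groups at or near 0 counts; filled points passed the test. In the left panel every collagen that passed lies below 0, and 3 of the 4 laminins that passed lie above 0.

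Collagens fell: 10 of 24 tested members passed, all lower in TDP-43 + EA, and none rose. Col16a1 (ENSRNOG00000031475, chr5:148257642-148311645 on Rnor_6.0), a fibril-associated collagen, was at 557, 618 and 565 CPM in Control and at 325, 363 and 318 in TDP-43 + EA. The groups did not overlap, and the log2 fold change was -0.79 (SE 0.10, adjusted p = 1.7e-05). Col9a3 (chr3:176102351-176124306) was at 75.5, 105 and 102 CPM against 44.6, 44.8 and 57.6, a log2 fold change of -0.94 (SE 0.14, adjusted p = 1.0e-04).

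Col9a3 is 1 of the 3 chains of type IX collagen, and the other chains were low at the start. Col9a2 (chr5:139963002-139979864) went from 8.13, 7.43 and 6.36 CPM to 0.899, 1.69 and 2.84 (log2 fold change -2.01, SE 0.45, adjusted p = 0.0028). Col9a1 (chr9:30419001-30502298) went from 92 counts over the 3 Control libraries to 2 counts over the 3 TDP-43 + EA libraries, a ratio of 41.6 with a 95% counting interval of 11.2 to 349 (adjusted p = 0.0066). All 3 chains of type IX collagen thus had lower levels, without overlap between the groups.

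The genes Col11a1 and Col11a2, which encode chains of type XI collagen, a fibrillar collagen of thin fibrils, fell by similar amounts. Col11a1 (chr2:216863428-217056523) was at 455, 694 and 588 CPM in Control and at 369, 361 and 390 with TDP-43 + EA (log2 fold change -0.63, SE 0.18, adjusted p = 0.014). Col11a2 (chr20:3830164-3859018) was at 329, 533 and 393 CPM against 260, 276 and 312 (-0.57, SE 0.19, adjusted p = 0.030). Control replicate 2 was the highest library for both, and without it neither call held (log2 fold changes of -0.48 and -0.35). The call of Col11a2 was also lost without TDP-43 + EA replicate 1 or 2.

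Col6a1 (chr20:12658065-12675561), a chain of the beaded filaments of type VI, fell from 77.7, 112 and 71.6 CPM to 49.1, 37.9 and 34.5 (log2 fold change -1.10, SE 0.20, adjusted p = 4.8e-04). Its neighbour 97.9 kb away, Col6a2, which encodes a partner chain, was at 1.27, 5.43 and 2.69 CPM against 4.18, 2.93 and 1.40 and did not pass (adjusted p = 0.88). Col20a1 and Col27a1 fell by 0.63 and 0.66 on the log2 scale, the latter call being lost without Control replicate 2 (-0.42) or TDP-43 + EA replicate 1. Col1a1 (chr10:82745801-82762789), the main chain of fibrillar type I, fell from 2.63, 2.92 and 3.85 CPM to 0.809, 0.975 and 1.49 (-1.51, SE 0.43, adjusted p = 0.011). The 14 collagens that did not pass had log2 fold changes on both sides of 0 and included the basement membrane chains Col4a1 and Col4a2, at -0.22 (SE 0.49) and 0.99 (SE 0.70).

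**Figure D3:**
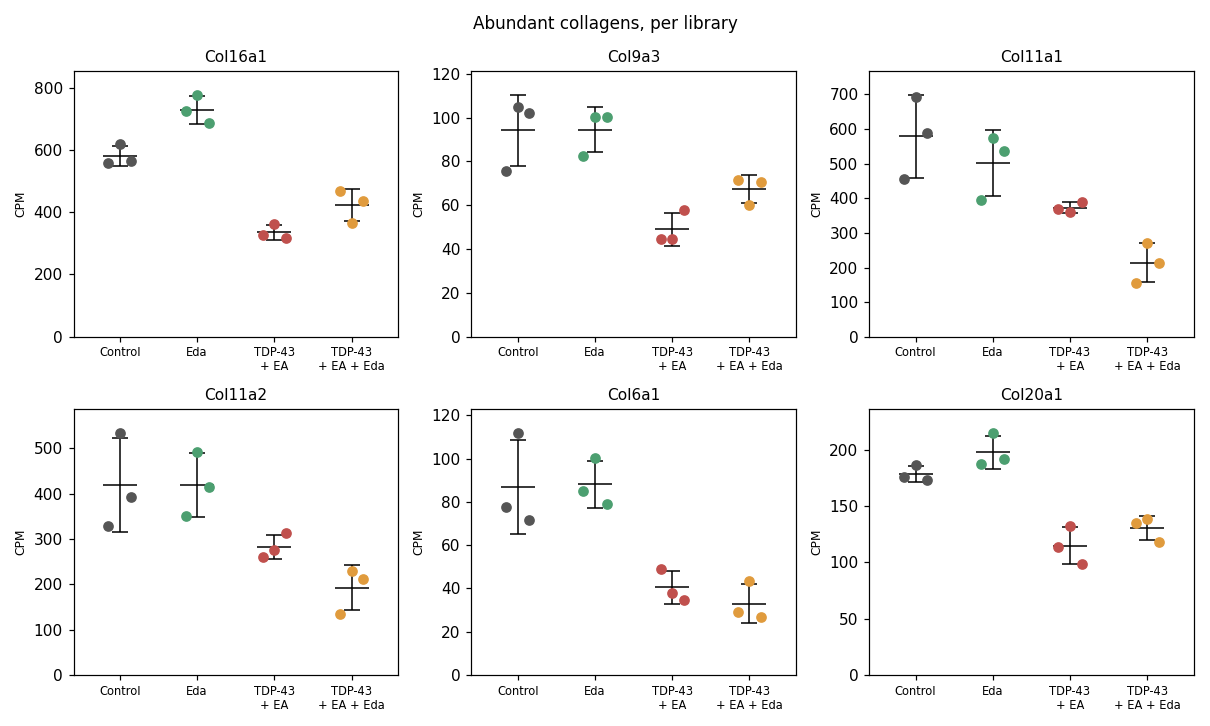
CPM (vertical axes) of 6 abundant collagens in the 12 libraries by group; each point is a library, the horizontal bar the mean of 3 libraries and the error bar 1 SD. Col11a1 and Col11a2 step down in TDP-43 + EA and again in TDP-43 + EA + Eda, whereas Col16a1 and Col9a3 are higher with edaravone than without it under TDP-43 + EA (365 to 467 versus 318 to 363 CPM for Col16a1).

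Laminins were the structural family with rising members: Lama4, Lama5 and Lamc1 rose and Lamb1 fell, of 6 tested. Lamc1 (ENSRNOG00000002680, chr13:70658707-70783515), the most widely used gamma chain, was at 92.4, 102 and 98.1 CPM in Control and at 152, 207 and 152 in TDP-43 + EA. All TDP-43 + EA libraries were higher, with a log2 fold change of 0.80 (SE 0.11, adjusted p = 5.6e-05). Lamb1 (ENSRNOG00000005678, chr6:50528823-50596079), the beta chain that pairs with it in several laminins, was at 38.3, 45.3 and 33.7 CPM against 21.7, 20.7 and 22.2. All TDP-43 + EA libraries were lower for Lamb1, with a log2 fold change of -0.86 (SE 0.19, adjusted p = 0.0024).

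The alpha chains Lama4 and Lama5 belong to laminins of vessels and of many basement membranes. Lama4 (chr20:44060731-44209614) was at 191, 207 and 188 CPM in Control and at 262, 339 and 289 with TDP-43 + EA (log2 fold change 0.60, SE 0.10, adjusted p = 2.6e-04). Lama5 (chr3:175553045-175601127) was at 34.5, 41.0 and 43.3 CPM against 56.0, 66.6 and 78.2 (0.76, SE 0.17, adjusted p = 0.0022). Neither gene overlapped between these groups. The other beta chain at a comparable level, Lamb2, was at 53.8, 74.9 and 45.1 CPM against 74.4, 79.4 and 71.0 and did not pass (adjusted p = 0.18).

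Of the 4 thrombospondins, 3 fell and none rose. Thbs1 (chr3:109862117-109873466) was at 4.80, 13.4 and 9.70 CPM in Control and at 3.10, 2.57 and 3.12 in TDP-43 + EA, without overlap (log2 fold change -1.66, SE 0.38, adjusted p = 0.0028). Thbs4 (chr2:22343727-22385855), a thrombospondin known from tendon and muscle as well as astrocytes, was at 2.38, 3.05 and 2.27 CPM against 0.495, 0.0513 and 0.466 (-2.89, SE 0.60, adjusted p = 0.0016). Thbs2, the most abundant of the 4, was at 38.2, 34.5 and 55.1 CPM against 31.7, 27.7 and 34.0 (-0.45, SE 0.17, adjusted p = 0.044). That call was lost when 8 of the 12 libraries were left out one at a time, among them Control replicate 3, which was the highest and without which the log2 fold change was -0.22. The other libraries of this kind were Eda replicates 1 and 3, TDP-43 + EA replicates 1, 2 and 3, and TDP-43 + EA + Eda replicates 1 and 3.

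Among the proteases, the Adamts genes had no riser and 3 that fell of 10, beside 19.6% of all genes tested that rose and 18.7% that fell. All 3 are known lectican cleavers, as is Adamts1, which did not pass. Adamts4 (ENSRNOG00000003538, chr13:89622632-89634419) was at 1084, 1018 and 1364 CPM in Control and at 274, 356 and 408 in TDP-43 + EA. The highest TDP-43 + EA library lay far below the lowest Control library, and Adamts4 was 3.34-fold lower (log2 fold change -1.74, SE 0.15, adjusted p = 5.3e-07). Its share of all protease TPM was 52.2, 45.4 and 57.0% in Control and 19.6, 19.1 and 26.2% in TDP-43 + EA.

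Adamts1 and Adamts5 lie next to each other on chromosome 11, 60.0 kb apart on the same strand. Adamts1 (chr11:25342126-25350974) was at 421, 589 and 445 CPM against 520, 618 and 501 and did not pass (log2 fold change 0.17, SE 0.21, adjusted p = 0.56). Adamts5 (chr11:25410975-25456836) fell from 3.98, 4.34 and 2.32 CPM to 0.809, 0.565 and 0.699 (-2.35, SE 0.47, adjusted p = 0.0012). Adamts9 (chr4:124660262-124858250) fell from 3.24, 3.63 and 4.46 CPM to 1.48, 1.54 and 1.12 (-1.45, SE 0.53, adjusted p = 0.042). The Adamts9 call was lost without any one of the 3 Control libraries, Eda replicate 1 or any one of the 3 TDP-43 + EA libraries. The CPM ratio of Adamts1 to Adamts4 was 0.388, 0.579 and 0.326 in Control and 1.90, 1.74 and 1.23 in TDP-43 + EA, so the more abundant of this pair of aggrecanases changed from Adamts4 to Adamts1 on this scale.

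Among the 11 tested Mmp genes 3 rose and 2 fell. Mmp19 (ENSRNOG00000006778, chr7:3216497-3224201), a secreted enzyme that cuts basement membrane proteins, was at 36.1, 44.2 and 29.0 CPM in Control and at 63.5, 121 and 71.4 in TDP-43 + EA. The groups did not overlap, and it was 2.34-fold higher (log2 fold change 1.23, SE 0.25, adjusted p = 0.0013). Mmp17 (chr12:30702571-30728655), a membrane-anchored enzyme, was at 51.1, 35.2 and 66.6 CPM against 22.4, 31.2 and 31.4 (-0.85, SE 0.23, adjusted p = 0.0097), a call lost without Control replicate 3 or TDP-43 + EA replicate 1. Mmp28 (chr10:70660691-70681672), or epilysin, was at 5.62, 4.98 and 6.31 CPM against 1.00, 1.64 and 0 (-2.69, SE 0.71, adjusted p = 0.0078).

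The other risers, Mmp12 and Mmp3, lie in a cluster of 10 Mmp genes on chromosome 8 (chr8:5522739-5901049 on Rnor_6.0, 378 kb). No gene of this cluster had a count in Control. Mmp12, the macrophage elastase, had 56, 21 and 31 counts in the TDP-43 + EA libraries and was at least 13.0-fold higher, taking the Control level as at most 3 counts per library (adjusted p = 9.1e-04). Mmp3, or stromelysin-1, had 14, 13 and 9 counts there and was at least 4.43-fold higher on the same floor (adjusted p = 0.015). Mmp10, or stromelysin-2, had 7, 0 and 1 counts and stayed below the filter, and the other 7 genes of the cluster (Mmp1, Mmp1b, Mmp7, Mmp8, Mmp13, Mmp20 and Mmp27) had no count in any of the 12 libraries, so that at this depth only 3 of 10 were seen. Mmp3, Mmp9 and Mmp12 passed the filter only because of the groups with TDP-43 + EA, and a member of that kind could hardly have been called lower.

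Of 8 microglia and macrophage markers, a cell type known for Mmp12, 2 were tested, and Cx3cr1, Ptprc and Tyrobp were at 0 in every library. Their sum was 1.97 to 6.14 TPM in Control and 4.28 to 5.39 TPM in Eda libraries, 5.41 to 9.09 TPM with TDP-43 + EA and 8.09 to 13.8 TPM once edaravone was added. Their part in the Mmp12 result was not tested.

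The bases ahead of these genes are shown because members of the cluster are textbook targets of AP-1, a stress-responsive transcription factor. RefSeq entries for the promoters (build GRCr8) were found for 78 of 101 members and for all 10 genes of the cluster. The following are the 100 bases before the annotated start, 5′ to 3′, with the letters TGANTCA of the AP-1 motif in capitals.
Mmp12: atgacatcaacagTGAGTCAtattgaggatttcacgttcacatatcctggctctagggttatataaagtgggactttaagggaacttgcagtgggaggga
Mmp3: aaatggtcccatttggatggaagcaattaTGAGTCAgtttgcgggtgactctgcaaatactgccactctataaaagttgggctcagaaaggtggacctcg
Mmp10: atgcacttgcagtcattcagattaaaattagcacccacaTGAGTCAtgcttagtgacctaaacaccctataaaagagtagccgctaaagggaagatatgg
Mmp13: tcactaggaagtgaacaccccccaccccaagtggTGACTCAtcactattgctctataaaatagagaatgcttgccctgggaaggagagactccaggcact
Mmp7: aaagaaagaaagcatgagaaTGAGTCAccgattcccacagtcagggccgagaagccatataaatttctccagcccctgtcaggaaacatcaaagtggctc
The first 3 are the genes of the cluster that had counts, and the last 2 are neighbours without any.

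The stretch printed for Mmp12 spans chr8:12866552-12866651 in that build, that for Mmp3 chr8:12925181-12925280, that for Mmp10 chr8:12974607-12974706, that for Mmp13 chr8:12782729-12782828 and that for Mmp7 chr8:13132943-13133042, all on the plus strand. The AP-1 letters began 87 bases before the start in Mmp12, 71 in Mmp3, 61 in Mmp10, 66 in Mmp13 and 80 in Mmp7. Within the 250 bases before the start they were found in 7 of 10 genes of the cluster (also in Mmp1 and Mmp20, not in Mmp1b, Mmp8 or Mmp27), beside 6.36% of 27457 rat promoters. These letters read the same on both strands. The same 7 genes held TATAAA on the gene's strand, beside 8.38% of all promoters. The letters were thus shared by genes of the cluster with and without counts. Over all 78 members with an entry, AP-1 letters were found in 8 (Col6a1 was the only one outside the cluster) and TGACNNNGC, an antioxidant response element searched on both strands that can share its TGAC with AP-1, in 8 beside 10.2% of all promoters. Members without an entry included Adamts5, Adamts8, Adamts15, Adamts16, Adamts19, Col1a1, Col2a1, Col3a1, Col6a2, Col9a3, Col12a1, Col14a1, Col22a1, Col25a1, Lamb2, Mmp2, Mmp9, Mmp14, Mmp16, Mmp17, Mmp19 and Thbs2.

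Among the 4 inhibitors Timp2 fell and Timp1 rose, while Timp3 and Timp4 did not pass. Timp2 (ENSRNOG00000003148, chr10:107338465-107386072) was at 379, 370 and 423 CPM in Control and at 267, 270 and 277 in TDP-43 + EA. The groups did not overlap and Timp2 fell by 0.53 on the log2 scale (SE 0.10, adjusted p = 5.5e-04). Timp3 (chr7:23544215-23594133), the inhibitor that binds to the matrix and blocks Adamts4 and Adamts5, was at 9.36, 9.81 and 10.5 CPM against 13.7, 10.4 and 12.3 and did not pass (adjusted p = 0.31). Timp4 (chr4:147156948-147163467) was at 2.42, 3.46 and 2.65 CPM against 1.93, 1.03 and 1.03, lower in all 3 libraries without passing (adjusted p = 0.082).

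Timp1 (chrX:1364786-1369384), an inhibitor known to be induced in reactive astrocytes, was near the limit of detection, with 0.0821, 0.125 and 0 CPM in Control and 0.135, 0.462 and 0.885 in TDP-43 + EA. It passed narrowly (log2 fold change 2.71, SE 1.01, adjusted p = 0.045), and the call was lost when any single library other than TDP-43 + EA replicate 1 was left out (adjusted p of 0.03 to 0.2 over the 12 libraries). Timp1, Timp3 and Timp4 overlap Syn1, Syn3 and Syn2 on the opposite strand, and the SMART-Seq and Nextera kits used for these libraries keep no record of strand. Syn1 averaged 8.49 CPM, above Timp1, whereas Syn3 and Syn2 averaged 1.92 and 0.00458 CPM. Only the spans of the genes were compared, not their exons, so whether Syn1 reads entered the Timp1 counts was not tested.

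**Figure D4:**
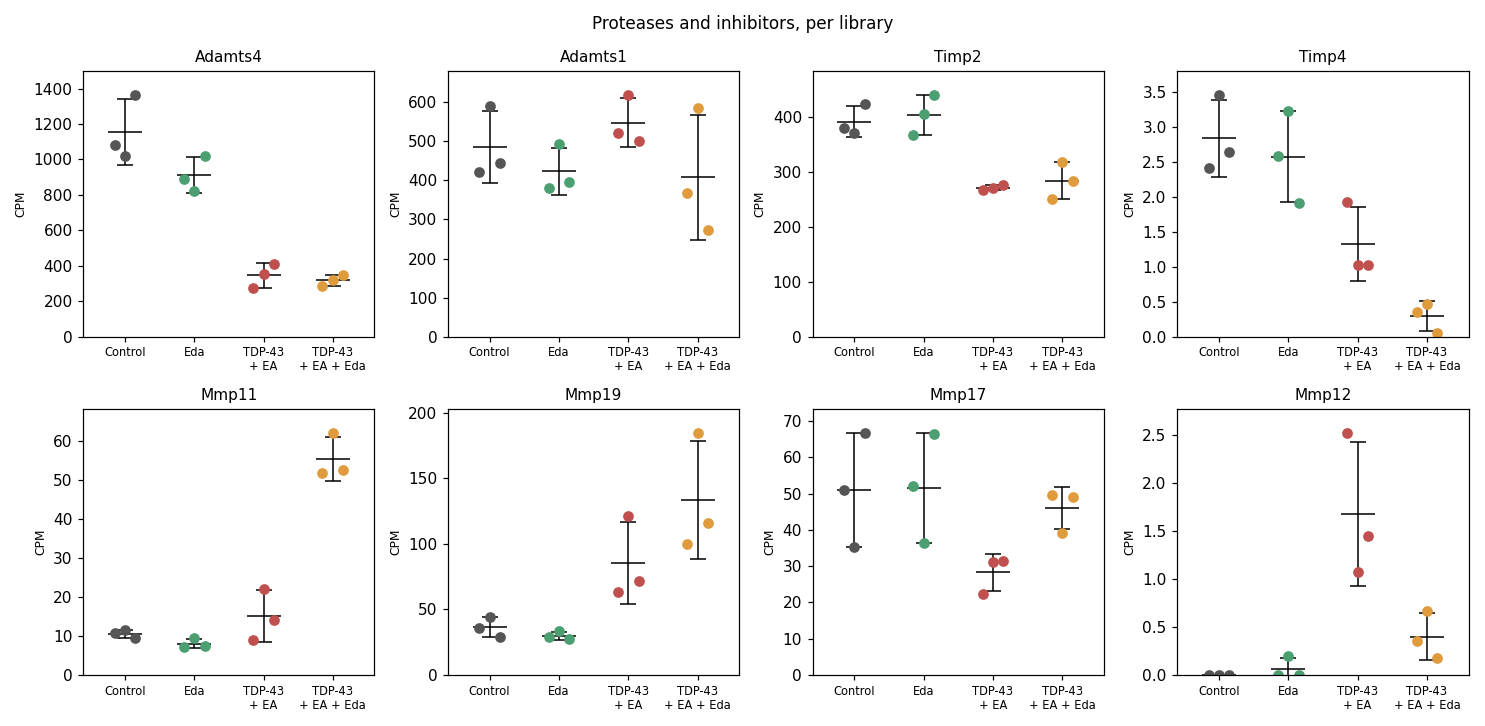
CPM (vertical axes) of 5 proteases that rose or fell, of Adamts1, and of Timp2 and Timp4, in the 12 libraries by group; each point is a library, the horizontal bar the mean of 3 libraries and the error bar 1 SD. Adamts4 is low in both TDP-43 + EA groups (274 to 408 CPM against 825 to 1364 in Control and Eda), and Mmp11 is high only in the 3 TDP-43 + EA + Eda libraries (51.9 to 62.1 CPM against at most 22.2 elsewhere).

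The comparison of TDP-43 + EA + Eda with TDP-43 + EA asks what edaravone changed in stressed cells. Of the 59 members 5 rose and 9 fell, beside 15.4% and 15% of all genes tested, so the shares of members (8.47% and 15.3%) were below and near those of all genes. Structural genes had 3 that rose and 5 that fell of 34, proteases 2 and 3 of 21, and inhibitors 0 and 1 of 4. As DEGs, 1 member was higher (Mmp11, beside 1.9% of all genes) and 3 were lower (Adamts10, Col12a1 and Timp4, beside 3.95%). The split moved with the scaling: with DESeq2-type (RLE) factors 7 rose and 8 fell, and with library totals alone 1 rose and 16 fell, a setting that moved the median of all genes by -0.28 on the log2 scale. The counts also moved with single libraries. Leaving out TDP-43 + EA replicate 1 left 2 risers and 5 fallers, leaving out replicate 3 of that group 3 and 5, leaving out its replicate 2 changed the fallers to 5, and leaving out TDP-43 + EA + Eda replicate 1 left 3 and 5, and replicate 3 of that group 2 risers.

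Mmp11 (ENSRNOG00000054959, on an unplaced contig of Rnor_6.0), known as stromelysin-3 and activated inside the secretory pathway by furin-type enzymes, was the 1 member higher as a DEG with edaravone in stressed cells. Under TDP-43 + EA it was at 8.95, 22.2 and 14.2 CPM without edaravone and at 51.9, 62.1 and 52.6 CPM with it, while Control had 10.8, 11.6 and 9.46 and Eda 7.28, 9.40 and 7.52. Only the 3 libraries with both TDP-43 + EA and edaravone were above 22.2 CPM. The difference was 3.68-fold (log2 fold change 1.88, SE 0.24, adjusted p = 7.1e-05), and its call held in all 21 alternatives. The Tardbp signal was also higher in these libraries, without overlap (2000 to 3672 CPM against 1090 to 1796 without edaravone), and its part in this and the other differences between the TDP-43 + EA groups was not tested. In a comparison outside the groups used here, the study lists Mmp11 among the genes higher in cells expressing TDP-43 than in cells without it.

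Lamc1 and Lamb1 moved further apart. Lamc1 rose from 152, 207 and 152 CPM to 224, 253 and 254 (log2 fold change 0.52, SE 0.11, adjusted p = 0.0029), although this call was lost with library totals alone and on the TPM scale. Lamb1 fell from 21.7, 20.7 and 22.2 CPM to 10.3, 15.9 and 9.84 (-0.85, SE 0.20, adjusted p = 0.0047). The TPM ratio of Lamc1 to Lamb1, which needs no scaling between libraries, was 2.48, 2.40 and 2.98 in Control, 1.71, 2.47 and 3.06 with Eda alone, 7.89, 10.8 and 7.12 with TDP-43 + EA, and 23.2, 17.1 and 26.8 once edaravone was added to these. The last 2 groups overlapped neither with each other nor with the first 2. Lama4 and Lama5 did not pass, at 0.12 (SE 0.10) and 0.18 (SE 0.16) on the log2 scale.

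**Figure D5:**
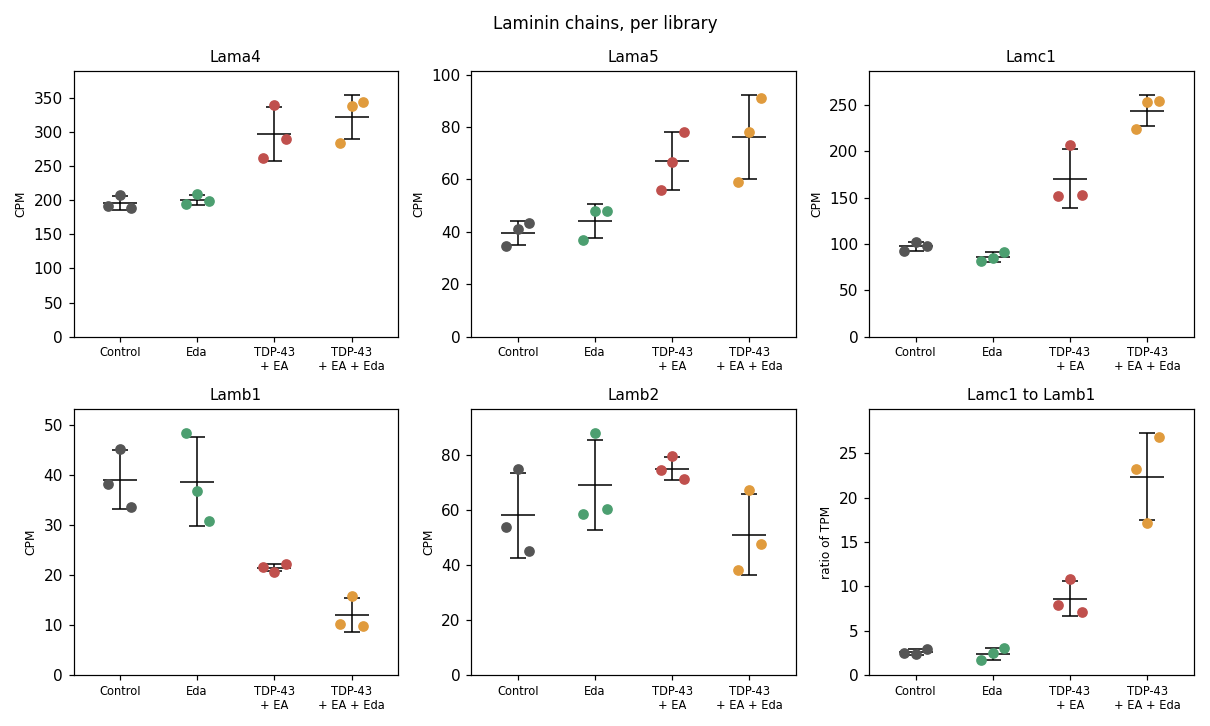
CPM (vertical axes) of 5 laminin chains and the ratio of Lamc1 to Lamb1 TPM in the 12 libraries by group; each point is a library, the horizontal bar the mean of 3 libraries and the error bar 1 SD. Lamc1 is higher and Lamb1 lower in both TDP-43 + EA groups than in Control, and the ratio is 7.12 to 10.8 with TDP-43 + EA alone and 17.1 to 26.8 with edaravone added.

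Of 24 tested collagens 2 rose (8.33%) and 4 fell (16.7%) with edaravone in stressed cells, beside 15.4% and 15% of all genes tested. Among these calls only that of Col11a1 held in all 21 alternatives. Col11a1 fell from 369, 361 and 390 CPM to 157, 271 and 214 (log2 fold change -0.80, SE 0.19, adjusted p = 0.0047). Col11a2 fell from 260, 276 and 312 CPM to 136, 228 and 213 (-0.56, SE 0.19, adjusted p = 0.040), and TDP-43 + EA + Eda replicate 1 was the lowest library of both. Without that library the Col11a2 value was -0.36 and its call was lost, as it was without Eda replicate 3, any one of the TDP-43 + EA libraries or TDP-43 + EA + Eda replicate 3.

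Col12a1 (chr8:87040799-87158368), a fibril-associated collagen, fell from 8.27, 8.52 and 6.76 CPM to 1.57, 3.61 and 4.98 (log2 fold change -1.25, SE 0.41, adjusted p = 0.034), without overlap. The Col12a1 call was lost without any one of the TDP-43 + EA libraries or TDP-43 + EA + Eda replicate 1 or 2. Col7a1, the collagen of anchoring fibrils, fell by 0.32 (SE 0.09, adjusted p = 0.013), a call lost without TDP-43 + EA replicate 3 or TDP-43 + EA + Eda replicate 3.

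Col16a1 and Col9a3 were higher with edaravone. Col16a1 went from 325, 363 and 318 CPM to 467, 365 and 436 (log2 fold change 0.33, SE 0.10, adjusted p = 0.017), still below all Control libraries. Col9a3 went from 44.6, 44.8 and 57.6 CPM to 71.4, 60.0 and 70.5 (0.46, SE 0.14, adjusted p = 0.023), also below all Control libraries. Both rises were lost with library totals alone, on the TPM scale, and without TDP-43 + EA replicate 1 or TDP-43 + EA + Eda replicate 1 or 3, that of Col16a1 also without TDP-43 + EA replicate 3 and that of Col9a3 also without TDP-43 + EA replicate 2. Since this comparison and that with Control share the TDP-43 + EA libraries, a gene low in these by chance would be lower in one and higher in the other.

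Among the proteases, Mmp17 went from 22.4, 31.2 and 31.4 CPM to 49.6, 39.3 and 49.0 (log2 fold change 0.70, SE 0.23, adjusted p = 0.033), within the range of Control. Its rise was lost with library totals alone, on the TPM scale, and without TDP-43 + EA replicate 1 or 3 or TDP-43 + EA + Eda replicate 1 or 3. The membrane-type enzymes Mmp15 and Mmp24 fell by 0.94 (SE 0.30, adjusted p = 0.029) and 0.91 (SE 0.26, adjusted p = 0.018). The Mmp15 call was lost without TDP-43 + EA replicate 2 or 3 or any one of the TDP-43 + EA + Eda libraries, and that of Mmp24 without TDP-43 + EA replicate 1 (-0.56) or TDP-43 + EA + Eda replicate 2.

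Adamts10 (chr7:18409147-18439012), a protease that binds to fibrillin microfibrils, fell from 4.68, 3.70 and 2.61 CPM to 0.550, 0 and 2.14 (log2 fold change -2.06, SE 0.67, adjusted p = 0.031). The call was lost without TDP-43 + EA replicate 1 or 2 or TDP-43 + EA + Eda replicate 1, and the value was -3.39 without TDP-43 + EA + Eda replicate 3, the highest of its group. Adamts4 stayed low, at 286, 319 and 350 CPM against 274, 356 and 408 (-0.12, SE 0.14, adjusted p = 0.58). Mmp19 was at 99.6, 184 and 116 CPM against 63.5, 121 and 71.4 and did not pass (adjusted p = 0.060), nor did Mmp12, with 13, 10 and 3 counts against 56, 21 and 31 (adjusted p = 0.096), or Mmp3, with 48, 10 and 0 counts against 14, 13 and 9 (adjusted p = 0.87).

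Timp4 fell from 1.93, 1.03 and 1.03 CPM to 0.357, 0.467 and 0.0593 (log2 fold change -2.13, SE 0.54, adjusted p = 0.0084). The groups did not overlap, and the call held in all 21 alternatives. Timp2 was at 250, 317 and 282 CPM against 267, 270 and 277, and Timp1 and Timp3 also overlapped between these groups (adjusted p of 0.68, 0.96 and 0.83).

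Whether edaravone acted otherwise in stressed than in unstressed cells was tested by the interaction, the difference between the log2 fold changes of edaravone with and without TDP-43 + EA. Higher in the interaction were 2 members, Mmp11 and Lamc1, and lower was 1, Lamb1, beside 8.42% and 7.04% of all genes. Mmp11 gave 2.27 (SE 0.34, adjusted p = 9.4e-04), which held in all 20 alternatives. Lamc1 gave 0.70 (SE 0.16, adjusted p = 0.0088), lost with library totals alone and on the TPM scale. Lamb1 gave -0.84 (SE 0.27, adjusted p = 0.049), lost when any single library was left out other than Control replicate 2, Eda replicate 3 or TDP-43 + EA + Eda replicate 2. Without TDP-43 + EA + Eda replicate 2, 9 members passed, and with library totals alone 13 did (1 higher, 12 lower); RLE factors gave 2 higher and 0 lower. For Col16a1 the interaction was 0.01 (SE 0.14, adjusted p = 0.99), the difference with edaravone being 0.33 in both settings.

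Edaravone alone changed no member past the threshold, and 0% of all genes tested were called by edgeR. At an unadjusted p below 0.05 there were 3 members and 539 genes, and DESeq2 called no member. The 3 members were Col16a1 (724, 776 and 687 CPM in Eda against 557, 618 and 565 in Control, log2 fold change 0.33, SE 0.10, adjusted p = 1), Adamts4 (892, 825 and 1021 CPM against 1084, 1018 and 1364, -0.34, SE 0.14, adjusted p = 1) and Timp3 (12.4, 14.8 and 14.4 CPM against 9.36, 9.81 and 10.5, 0.48, SE 0.22, adjusted p = 1). Col16a1 and Timp3 did not overlap between the groups, while Adamts4 in Eda replicate 3 lay above the lowest Control library.

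Set against Control, TDP-43 + EA + Eda cells had 9 members that rose and 22 that fell, beside 27.1% and 30.4% of all genes. Collagens had none that rose and 11 that fell of 24, laminins 3 and 1 of 6, thrombospondins 0 and 2 of 4, Mmp genes 5 and 3 of 11, Adamts genes 0 and 3 of 10, and Timp genes 1 and 2 of 4. Of the 5 Mmp genes that rose, Mmp3, Mmp9 and Mmp12 passed the filter only because of the groups with TDP-43 + EA. These genes could hardly have been called lower, so the count of Mmp risers is a description only. Mmp11 was 2.39 higher on the log2 scale (SE 0.24, adjusted p = 1.0e-06) and Mmp19 1.86 higher (SE 0.25, adjusted p = 1.7e-05), and Lamb1 was 1.72 lower (log2 fold change -1.72, SE 0.20, adjusted p = 3.6e-06). Mmp9, or gelatinase B, passed in this comparison with 19, 14 and 18 counts against 4, 1 and 0 (log2 fold change 3.46, SE 1.23, adjusted p = 0.026), a call lost without Control replicate 2 or 3 or TDP-43 + EA + Eda replicate 2 or 3. Col1a1 and Mmp17, which fell in TDP-43 + EA, were at 2.53, 1.13 and 3.56 CPM and at 49.6, 39.3 and 49.0 CPM and did not differ from Control past the threshold (log2 fold changes of -0.37, SE 0.41, and -0.15, SE 0.23).

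Beside the fall of collagens, Adamts4 and thrombospondins stood that of the oligodendrocyte lineage markers, of which 11 of 12 fell and none rose in TDP-43 + EA against Control. In that comparison 18.7% of all genes tested fell and 19.6% rose. With edaravone in stressed cells 1 of the oligodendrocyte lineage markers rose and none fell, beside 15.4% and 15% of all genes. The part of these markers in the results of the matrix genes was not tested. Of 3 tested astrocyte markers none passed in TDP-43 + EA against Control and 1 fell with edaravone in stressed cells, with sums of 294 to 422 TPM in Control and 364 to 496 TPM in Eda libraries, 287 to 410 TPM with TDP-43 + EA and 150 to 269 TPM once edaravone was added. Of 6 tested neuronal markers 2 rose and 2 fell in TDP-43 + EA against Control, and the sums were 385 to 470 TPM in Control libraries and 234 to 358 TPM with TDP-43 + EA.

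Other genes of the matrix were read from lists of symbols. Their counts, here and below, stand beside 19.6% of all genes tested that rose and 18.7% that fell in TDP-43 + EA against Control. With edaravone in stressed cells these shares of all genes were 15.4% and 15%. Of 24 tested glycoproteins and proteoglycans, 2 rose and 10 fell in TDP-43 + EA against Control, with a median log2 fold change of -0.34 beside 0.00 for all genes. The fallers included Tnr, the tenascin-R of perineuronal nets (-1.23, SE 0.10), the nidogen Nid2, which links laminin to type IV collagen (-1.38, SE 0.12), Emilin1 of elastic fibres (-1.84, SE 0.17) and the matrilin Matn2 (-1.26, SE 0.15), all with an adjusted p of at most 1.2e-05. With edaravone in stressed cells 1 rose and 7 fell of these 24, with Tnr at 0.42 (SE 0.10, adjusted p = 0.0043) and Emilin1 at -0.91 (SE 0.18, adjusted p = 0.0014).

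Of 19 tested genes that modify and crosslink collagen, 6 rose and 2 fell in TDP-43 + EA against Control, and 6 rose and 1 fell with edaravone in stressed cells. P4ha1, the catalytic alpha subunit of collagen prolyl 4-hydroxylase, averaged 100 CPM in Control, 157 CPM with TDP-43 + EA and 399 CPM once edaravone was added, with log2 fold changes of 0.65 (SE 0.14, adjusted p = 0.0020) and then 1.35 (SE 0.14, adjusted p = 1.9e-05). Plod2, the lysyl hydroxylase of collagen telopeptides, averaged 12.3, 29.6 and 53.0 CPM (1.26, SE 0.22, adjusted p = 4.3e-04, then 0.84, SE 0.22, adjusted p = 0.0087). P4hb, the beta subunit that is also a protein disulfide isomerase, rose by 0.67 (SE 0.09, adjusted p = 2.7e-05), and Loxl3, a lysyl oxidase-like crosslinker, fell with edaravone (-1.63, SE 0.29, adjusted p = 8.0e-04).

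Of 24 other extracellular proteases and inhibitors, 6 rose and 3 fell in TDP-43 + EA against Control, and 5 rose and 1 fell with edaravone in stressed cells. Plg, plasminogen, averaged 2.62, 11.9 and 26.1 CPM in the order Control, Group 3 and Group 4, passing in both comparisons (2.18 and 1.13, SE 0.31 and 0.29). Adam19, a membrane-bound sheddase, averaged 118, 38.2 and 11.6 CPM and fell in both (-1.62, SE 0.18, and -1.76, SE 0.19), and Serpine2, or nexin-1, fell from 2179 to 1358 CPM (-0.68, SE 0.10, adjusted p = 7.2e-05).

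Of 24 tested matrix receptors, 4 rose and 5 fell in TDP-43 + EA against Control, near the 19.6% and 18.7% of all genes. With edaravone in stressed cells 6 rose and 6 fell, beside 15.4% and 15% of all genes. The integrin Itgav averaged 111, 251 and 386 CPM in the order Control, Group 3 and Group 4 (log2 fold changes of 1.18, SE 0.13, and 0.62, SE 0.13), and its partner Itgb3 averaged 14.4, 16.7 and 52.2 CPM (0.22, SE 0.18, not past the threshold, and then 1.65, SE 0.18, adjusted p = 2.4e-05). The collagen receptor Ddr1 fell from 613 to 250 CPM (-1.30, SE 0.14, adjusted p = 7.0e-06) and Mcam, a receptor of laminins with the alpha-4 chain, from 98.5 to 56.0 CPM (-0.81, SE 0.08, adjusted p = 3.7e-06). Of 23 tested genes of TGF-beta signalling, a pathway known to raise collagen transcription, 11 rose and 5 fell in TDP-43 + EA against Control, and 6 rose and 1 fell with edaravone in stressed cells. The ligands Tgfb2 and Tgfb3 fell (-1.40, SE 0.12, and -2.00, SE 0.21), while Ltbp1, which stores the latent ligand in the matrix, and the feedback inhibitor Smad7 rose (3.30, SE 0.40, and 1.89, SE 0.28), all in TDP-43 + EA against Control with an adjusted p of at most 1.1e-04.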

How the data were processed

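The deposited tables hold expected counts, which are the authors' estimated reads per gene, and TPM, which the authors derived per transcript length, for 32883 rat genes (Rnor_6.0) in 12 libraries; every column belonged to a labelled library, and 0 were left unused. The submitters' notes and the study name bcl2fastq 2.20, DRAGEN, R 3.6.0 and DESeq2 1.26.0. DRAGEN was run with its default parameters, and how these treat reads shared between genes is not given in the sources used here.

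Counts were rounded and analysed in R 4.3.3 with edgeR 4.0.16 (default low-count filter, TMM factors, robust quasi-likelihood test over all 12 libraries, Benjamini-Hochberg adjustment over all 13230 genes tested). Groups followed GEO's labels. SE is the log2 fold change divided by the square root of the test's F. Alternatives used DESeq2 1.42.0, limma 3.58.1 on log2(TPM + 1) or log2(TPM + 0.1), RLE factors, library totals, no filter, 2 groups at a time, a replicate block and each library left out. Scripts were tested on simulated data. Counting intervals (95%) and the floor of 3 counts per library cover only counting error, as molecular identifiers are not mentioned. Within groups no 2 libraries were near copies (chi-square per gene of 11.1 to 69.3). Plots were drawn with matplotlib 3.10.9 in Python 3.11.15.

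Members and gene lists were chosen with earlier results of these data known. Described one by one are members that were DEGs in either main comparison, the 2 of each family with the highest TPM in Control, every Timp gene, members passing in the interaction, and of each other list the 4 genes with the smallest adjusted p; other genes named were picked after their values were seen. Some genes that this rule or the lists would name are not reported here.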

Additional observations from a re-analysis of the deposited data

Results flagged for a closer look

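The effect of edaravone differed between cells with and without TDP-43 + EA for 3 members by the interaction test of edgeR. Among tested members 3.39% were higher and 1.69% lower, below the 8.42% and 7.04% of all genes tested. For Mmp11 the difference was 2.27 on the log2 scale (higher with edaravone in all 3 stressed libraries than in any other library). For Lamc1 it was 0.70 and for Lamb1 -0.84, the latter at an adjusted p of 0.049. Only the Mmp11 call held in all 20 alternatives, while that of Lamc1 was lost in 4 and that of Lamb1 in 11.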

How the results depend on the processing

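In TDP-43 + EA against Control 19 of 27 calls of members held under all alternatives, with 6 to 10 risers and 16 to 20 fallers when single libraries were left out, and 4 and 10 with the fold minimum. In TDP-43 + EA + Eda versus TDP-43 + EA 4 of 14 calls held under all of them. There the risers numbered 1 with library totals only, 1 in each of the 3 fits of TPM, 1 with the fold minimum and 2 to 7 with single libraries left out, and the fallers 16 with library totals, 14 on log2(TPM + 1), 15 on log2(TPM + 0.1), 3 with the fold minimum and 5 to 11 with single libraries left out. In the interaction 1 of 3 calls held throughout, and the count was 6 with DESeq2, 13 with library totals, 8 on log2(TPM + 1), 9 on log2(TPM + 0.1), 1 with the fold minimum and 2 to 9 with single libraries left out. Against Control, TDP-43 + EA + Eda kept 22 of 31 calls throughout (8 to 10 risers, 18 to 24 fallers with single libraries left out). No call changed sign.

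Same-numbered libraries were not taken as pairs, since no source ties a number to an experiment and the correlations of their deviations ran from 0.022 to 0.134, although every library correlated best with its own number. With the replicate block 8 members rose and 11 fell in TDP-43 + EA + Eda versus TDP-43 + EA, 9 passed in the interaction (3 higher, 6 lower), and Timp1 did not pass in TDP-43 + EA against Control (adjusted p = 0.071). No other call of a member described was lost with the block. Library totals and TPM lowered the median gene of TDP-43 + EA + Eda versus TDP-43 + EA by 0.28 and 0.24 on the log2 scale. The cause of the other changes was not tested. With 3 libraries a group, members below about 1 CPM rest on few counts.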

Other observations

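Members below the filter on low counts entered no comparison. The highest single values among them were 1.54 CPM for Lama1, a laminin alpha chain of early basement membranes, 1.13 CPM each for Adamts6 and Col4a3, and 0.809 CPM for Adamts7. Mmp14, the membrane-type enzyme that activates Mmp2, had 9 counts in 3 of 12 libraries, while Mmp2 was tested and did not pass in any comparison. Col4a3 and Col4a4, which lie head to head 373 bases apart, had at most 1.13 and 0.902 CPM.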
